A study of Mus musculus with 18 samples.

Results

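Cholesterol handling was followed through 31 genes: 18 enzymes that make cholesterol, 5 genes that control the sterol-responsive transcription factors, 2 genes of sterol transport and storage, and 6 genes of the liver X receptor and efflux arm. Members were the protein-coding rows whose gene name equals a listed symbol, with the values of a gene's coding transcripts summed. Of the 31, 30 matched by name, and Msmo1 was found through its transcript identifiers under an older symbol. The table held 22305 protein-coding gene names in all. The list does not hold every gene of the pathway.

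RNA was sequenced from clonal lines of mouse oligodendrocyte progenitor cells (OPCs), which were derived from primary neural stem cells, in a study of how the transcription factor THAP1 acts in oligodendrocyte development. The 3 control lines are clones D7, D3 and E8, and the 3 lines labelled as lacking Thap1 are clones 3F, D6 and 7F, called null here, with 1 library per clone and stage and 18 libraries in all. The OPC stage (day 0) was growth medium with PDGF-AA, and the later stages were 2 and 4 days in differentiation medium with the thyroid hormone T3 (DIV2 and DIV4). The labels do not name the null allele, the way the clones were made or the kind of control line. Every replicate is a clonal line with 1 library per stage, so differences between clones, cultures and libraries cannot be told apart in the errors below. The standard errors come from 1 fit that pools the spread over all 18 libraries. The same 6 clones recur at the 3 stages.

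Cells make cholesterol from acetyl-CoA through mevalonate, the isoprenoid farnesyl pyrophosphate, squalene and lanosterol. When sterols in the endoplasmic reticulum are low, SCAP escorts the transcription factor SREBP-2 (gene Srebf2) to the Golgi, where proteolysis frees its active part, which turns on nearly all of these enzymes; INSIG proteins hold SCAP back when sterols are high. SREBP-1 (Srebf1) acts mostly on fatty acid genes. Oxysterols activate the liver X receptors, which turn on export genes such as Abca1 and Abcg1, and also Srebf1. Myelin is rich in cholesterol, and oligodendrocytes make most of what they use.

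The start regions of 4 members hold the core of the sterol regulatory element, the DNA letters that SREBPs bind, and they are shown here with Insig1 because the results below return to these genes. A set of 3 motifs was searched on both strands in the 250 bases before each RefSeq start (GRCm38.p6): TCACNCCA for the sterol element, CCAAT for the box bound by NF-Y, which is known to act with SREBPs, and TNNGGGCA for the THAP1 core. RefSeq gave 37 such windows for 26 of the members. Each line is the gene's own strand, 5′ to 3′, with sterol element and CCAAT matches on either strand in capitals.
Srebf2 (chr15:82147019-82147180, plus strand): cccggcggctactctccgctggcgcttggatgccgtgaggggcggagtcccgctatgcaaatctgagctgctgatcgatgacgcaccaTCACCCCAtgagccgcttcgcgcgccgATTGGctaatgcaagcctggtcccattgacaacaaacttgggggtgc
Hmgcs1 (chr13:119690101-119690350, plus strand): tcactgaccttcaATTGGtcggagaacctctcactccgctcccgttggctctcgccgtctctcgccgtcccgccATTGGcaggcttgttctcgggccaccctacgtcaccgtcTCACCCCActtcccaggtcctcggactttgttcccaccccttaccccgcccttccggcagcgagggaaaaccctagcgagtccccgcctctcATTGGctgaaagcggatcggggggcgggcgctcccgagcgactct
Msmo1 (chr8:64733737-64733766, minus strand): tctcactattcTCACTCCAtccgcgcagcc
Apoe (chr7:19699189-19699438, minus strand): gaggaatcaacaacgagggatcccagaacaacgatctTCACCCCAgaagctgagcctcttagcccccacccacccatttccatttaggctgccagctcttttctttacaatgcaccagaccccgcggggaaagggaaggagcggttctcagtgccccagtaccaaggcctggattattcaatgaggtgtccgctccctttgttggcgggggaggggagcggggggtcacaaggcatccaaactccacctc
Insig1 (chr5:28071162-28071362, plus strand): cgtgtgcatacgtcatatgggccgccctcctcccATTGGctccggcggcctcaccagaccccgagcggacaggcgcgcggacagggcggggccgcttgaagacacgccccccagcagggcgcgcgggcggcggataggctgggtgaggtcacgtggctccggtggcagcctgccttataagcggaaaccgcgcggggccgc
Stretches that GENCODE M21 places in an exon were left out for Srebf2 and Insig1. The Msmo1 match lies within an annotated exon, as do all 30 bases shown around it. A match that runs past a shown stretch is not in capitals.

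The sterol element core was found in 4 of the 37 windows (10.8%), in Srebf2, Hmgcs1, Msmo1 and Apoe, against 3.67% of all 32851 windows. The CCAAT box was found in 21 windows (56.8%) from 20 members, against 33.8% of all windows. Hmgcs1 had 3 CCAAT matches besides its sterol element, and Msmo1 also had 3. The THAP1 core was found in 2 windows (5.41%), of Insig2 and Nr1h3, against 11.9% of all windows. No matches of different motifs shared bases within a window (0 pairs). Fdps, Fdft1, Sqle, Abcg1 and Stard4 had no entry.

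All values are rescaled TPM: TPM (transcripts per 1000000) summed over coding transcripts, corrected for length by the authors and then divided by 1 factor per library, so levels can be compared between genes and libraries. The factor was needed because mmu-mir-6236, Gm15662 and Gm26924, all noncoding, together held 64.8% to 88.0% of the deposited TPM in the control OPC libraries and 34.8% in null D6 OPC, but 0.359% to 3.17% in the other 14 libraries. Without the factor the median gene was higher in null OPCs by 1.49 (log2), and 27 of the 31 members were called higher there, as were 87.9% of all genes tested. Sequencing depth is unknown from TPM. Thap1 itself lay at 3.34 to 4.41 in control and 0.486 to 0.778 in null OPCs, and it was lower in null clones by 1.63, 1.13 and 1.44 (log2) at OPC, DIV2 and DIV4 (adjusted p = 0.000116, 0.00261 and 0.000399). The 10 oligodendrocyte markers summed to 107 to 605 in OPCs of either genotype and 1495.3 to 8856 from DIV2 on. Control D7 at DIV4 stood apart from the other DIV4 libraries, with an oligodendrocyte marker sum of 8856 and an astrocyte marker sum of 13.4. Control D3 as OPCs stood apart too: its 8 cell cycle genes summed to 36.5, against 391 to 548 in the other OPC libraries.

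A gene was tested where its mean over the 18 libraries reached 1 rescaled TPM. That left 10409 genes and 30 of the 31 members. Nr1h3, the liver X receptor alpha gene, was at most 0.492 in any library and was not tested. Changes are differences of log2(rescaled TPM + 1), which understate the change of low genes, and a gene is called at an adjusted p under 0.05 over all genes tested. Averaged over the 18 libraries, Hmgcs1 (96.3), Fdps (79.2), Acat2 (49.1) and Insig1 (48.9) had the highest levels, and Stard4 (3.85), Abcg1 (3.20) and Nr1h3 (0.204) the lowest.

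**Figure D1:**
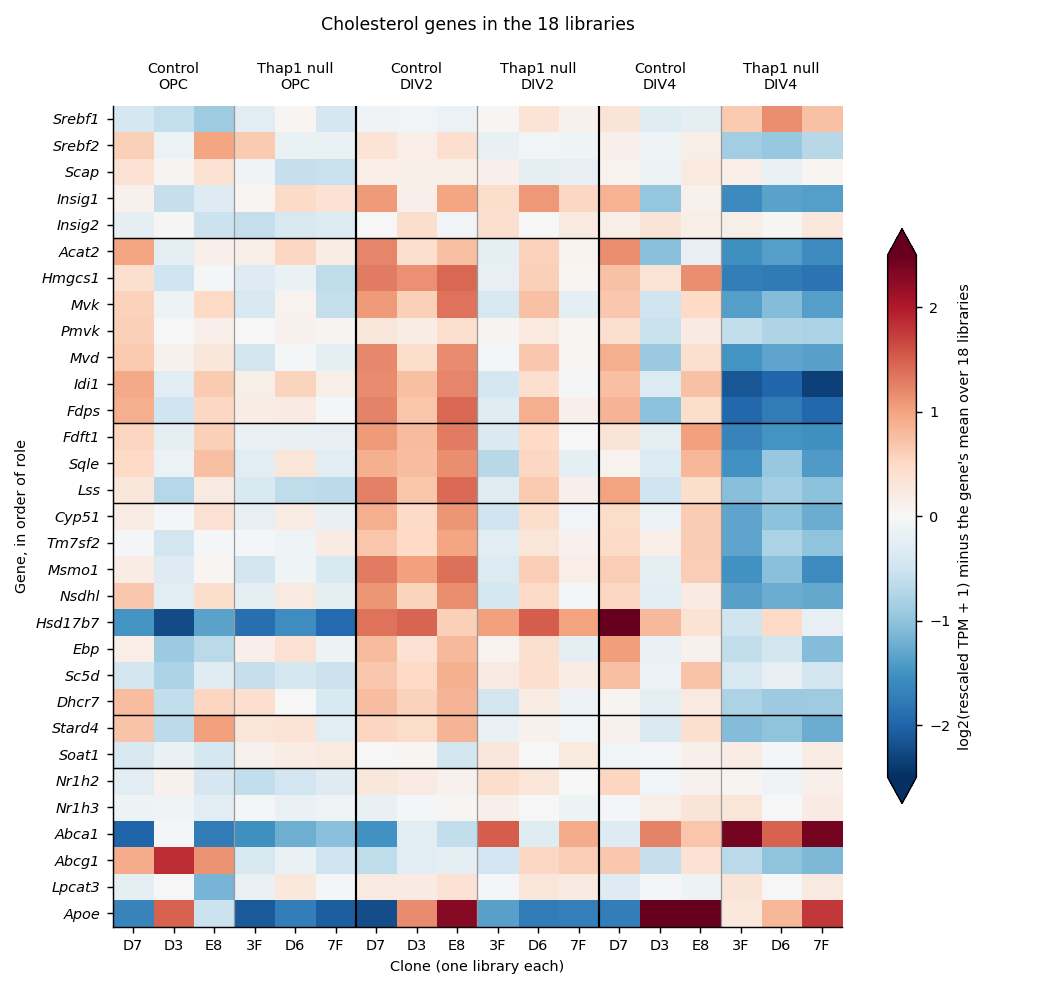
Each cell is log2(rescaled TPM + 1) of a member in 1 library minus that gene's mean over the 18 libraries, with genes in rows by role and libraries in columns by stage and genotype; colours saturate beyond 2.5. From Acat2 to Dhcr7 the control DIV2 columns are red, and the 3 null DIV4 columns are blue for all of these genes but Hsd17b7 in D6.

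The members differed most between genotypes at DIV4. There 16 were called lower in null clones and 1 higher, where 2.34% and 3.15% of all genes tested were called. Hmgcs1 and Idi1 had the largest changes among them, 5.75-fold and 5.78-fold lower on the log2(value + 1) scale, and 14 of the 18 synthesis enzymes were called lower. All 18 enzymes had negative estimates with a median of -1.48, against -0.01 over all genes tested. The groups did not overlap for 17 of the 18, the null clones lying lower, as they did for 13.6% of all genes. At DIV2, 2 members were called lower, Hmgcs1 and Msmo1, and none higher (1.26% and 1.93% of all genes). The enzymes' median was -0.87 at that stage, and the null clones lay wholly lower for 11 of the 18 (17.1% of all genes). In OPCs 1 member was called higher and 2 lower (5.91% and 5.95% of all genes), and none of them was an enzyme. Without the control D3 OPC library 2 were called higher and 4 lower, and without the null D6 OPC library 1 lower. Over all genes tested those fits called 2002 and 851, in place of 1234. The enzymes' median was -0.23 in OPCs.

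**Figure D2:**
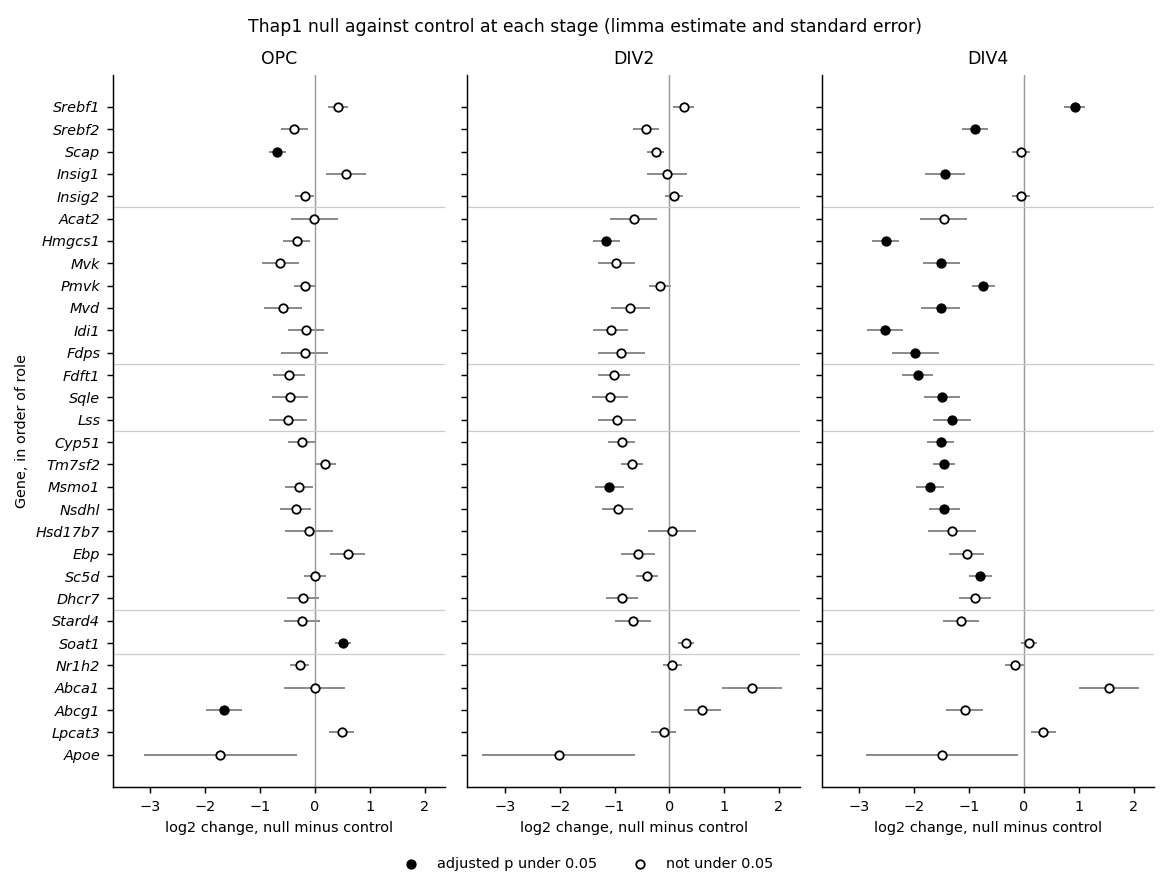
Points are the change of each tested member in null against control clones, in log2 units with the standard error, at the 3 stages, and filled points have an adjusted p under 0.05. The enzymes from Acat2 to Dhcr7 lie around -0.23 in OPCs, -0.87 at DIV2 and -1.48 at DIV4 (medians).

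Summed over the 18 enzymes, the rescaled TPM of control clones D7, D3 and E8 was 631, 333 and 518 as OPCs, 966, 754 and 1016 at DIV2, and 792, 365 and 682 at DIV4. In null clones 3F, D6 and 7F it was 387, 452 and 363 as OPCs, 376, 683 and 462 at DIV2, and 154, 189 and 154 at DIV4. The genotypes overlapped as OPCs. At DIV2 every control clone lay above every null clone, and at DIV4 the lowest control clone, D3, was still above the highest null clone, D6. In deposited TPM, without the factors, the DIV4 sums were 738, 729 and 1385 in control and 206, 279 and 215 in null clones, in the same order of groups. In bulk RNA, fewer cells of a type and less RNA per cell cannot be told apart.

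**Figure D3:**
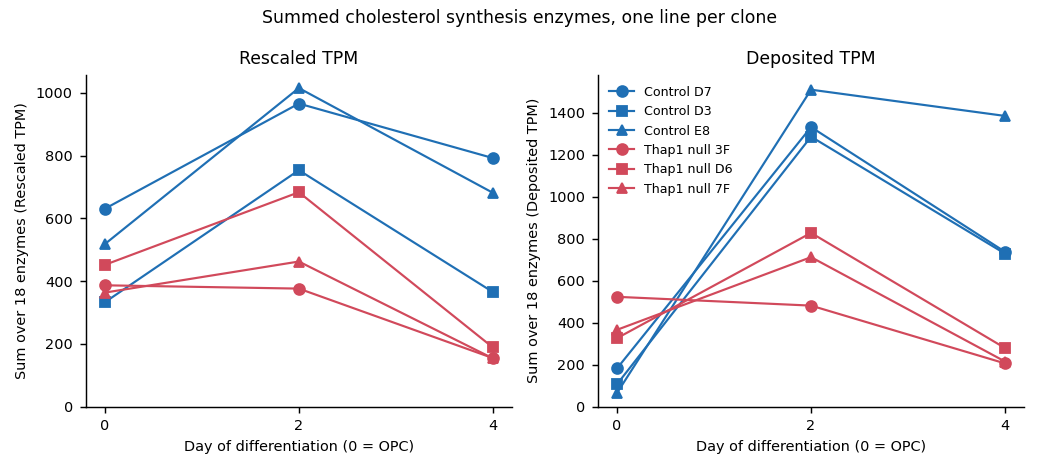
Lines follow the summed TPM of the 18 synthesis enzymes in each clone over days 0, 2 and 4, rescaled on the left and as deposited on the right. The null clones end between 154 and 189 rescaled TPM and the control clones between 365 and 792; in deposited TPM the control clones start low, at 65.3 to 182.

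Markers of cell state also differed among these libraries. At DIV2 the oligodendrocyte marker sum was 4483, 2869 and 3092 in control and 2468, 2759 and 2258 in null clones, and that of the 8 cell cycle genes was 6.93, 14.3 and 7.51 in control and 16.8, 49.3 and 28.2 in null clones. Neither sum overlapped between the genotypes at that stage, and no single marker of either list was called. Their part in the lower DIV2 enzyme levels was not tested. The oligodendrocyte marker sum at DIV4 was 8856, 1974 and 1547 in control D7, D3 and E8, and 1495.3, 2259 and 1560 in null 3F, D6 and 7F. All 10 markers reached 1 rescaled TPM in each control clone and 8 or 9 in the null clones, and Mobp, a myelin-associated protein gene, was called lower in null clones by 2.87 (SE 0.56, adjusted p = 0.00877). The astrocyte sum over 8 markers was 13.4, 230 and 486 in control and 261, 185 and 282 in null clones, with Gja1 at most 0.101 in any library. The OPC markers summed to 382 to 499 in control and 290 to 307 in null clones. They were also apart in OPCs, at 634 to 942 in control and 483 to 588 in null clones. At DIV2 they just overlapped, at 307.3 to 502.9 and 226.4 to 307.8. Of the 7 tested, 1 was called lower in null clones in OPCs and 1 at DIV4. Their part in the member calls was not tested. At DIV4 the 8 cell cycle genes summed to 26.02, 25.95 and 42.8 in control and 10.2, 22.1 and 25.85 in null clones. Their direction was thus the reverse of DIV2, with the groups only just apart. All 8 had negative estimates (median -0.57), and none was called. Of the 9 oligodendrocyte markers tested, 8 had negative estimates in null DIV4 clones (median -1.12), and Mobp was the 1 called. Control D3 and E8 had oligodendrocyte sums within the null range, and their enzyme sums of 365 and 682 lay above the null range of 154 to 189. The oligodendrocyte sum weighs abundant markers such as Mbp (up to 4843) far more than Ermn (up to 4.51), so similar sums do not show a similar cell state. The part of the marker differences in the lower enzyme levels was not tested. Without the control D7 DIV4 library, 9 members, all of them enzymes, were called lower in place of 16, and Hmgcs1 was lower by 2.53 (adjusted p = 2e-04). Over all genes tested, that fit called 294 lower in place of 244. Microglial markers other than P2ry12 were at most 0.568 in any library, with C1qa and C1qb at 0 in all of them. The 8 summed to 0.880 to 1.42 in control and 2.44 to 4.56 in null DIV4 clones. P2ry12, the 1 tested, reached 4.39 and was called higher in null DIV4 clones (1.14, adjusted p = 0.00976). The 6 neuron markers summed to 8.55 to 92.6 over the 3 stages, with Tubb3 up to 90.1. The mesenchymal list summed to at most 1.04 in any library.

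Of the 5 genes that control SREBPs, 3 were called at DIV4, and the SREBP genes moved in opposite directions. Srebf2 was 11.2, 9.47 and 11.5 in control and 5.17, 4.82 and 5.94 in null clones, so the groups did not overlap. It was lower in null clones by 0.89 (SE 0.24, adjusted p = 0.0457). Srebf1 was 5.54, 3.27 and 3.50 in control and 7.29, 10.8 and 7.77 in null clones. It was higher by 0.92 (SE 0.19, adjusted p = 0.0109), and its level in every null clone was above the highest control clone. This call was lost in deposited TPM, with all transcripts of a gene name summed, and when only the DIV4 libraries were fitted. Coding transcripts held 58.4% of the Srebf1 TPM. Over the alternative fits, Srebf1 kept its call in 11 of 16 and Srebf2 in 7 of 17. The ratio of Srebf1 to Srebf2 was 0.494, 0.345 and 0.305 in control and 1.41, 2.24 and 1.31 in null clones at DIV4. At DIV2 the ratio was 0.268 to 0.347 in control and 0.494 to 0.578 in null clones, and in OPCs, 0.0865 to 0.270 and 0.199 to 0.497. The ratio thus separated the genotypes at DIV2 and DIV4 and overlapped in OPCs. At DIV4 this follows from the separation of both genes in opposite directions, and at DIV2 neither gene was called. The ratio itself was not tested.

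Insig1, an SREBP target whose protein holds SCAP in the endoplasmic reticulum, lies at chromosome 5, 28071363 to 28078662 (GRCm38). In OPCs it was 45.4, 28.0 and 33.4 in control and 43.8, 59.2 and 54.4 in null clones. At DIV2 it was 89.1, 45.9 and 84.0 in control and 57.2, 89.9 and 60.6 in null clones. At DIV4 it was 77.9, 20.9 and 45.1 in control and 13.3, 15.9 and 15.5 in null clones, a fall of 1.44 relative to control (SE 0.36, adjusted p = 0.0330). The genotypes overlapped until DIV2 and no longer did at DIV4. Without the control D7 DIV4 library the estimate was -1.002 and the call was lost (adjusted p = 0.0887).

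Insig2, the second INSIG gene, stayed between 3.38 and 7.97 in all 18 libraries, and its DIV4 change was -0.06 (SE 0.17, adjusted p = 0.887). Scap, the escort of SREBPs, was 20.7, 16.3 and 20.6 in control OPCs and 14.6, 10.1 and 10.3 in null OPCs. It was called lower there by 0.68 (SE 0.16, adjusted p = 0.0138), and the groups did not overlap. The call was lost without control E8, null D6 or null 7F. In deposited TPM the sign turned, to 1.21 higher (adjusted p = 0.00376), below the shift of 1.49 of the median gene. At DIV4 Scap was 16.4 ± 2.18 in control and 15.8 ± 1.95 in null clones (SD, n = 3), with overlapping groups.

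**Figure D4:**
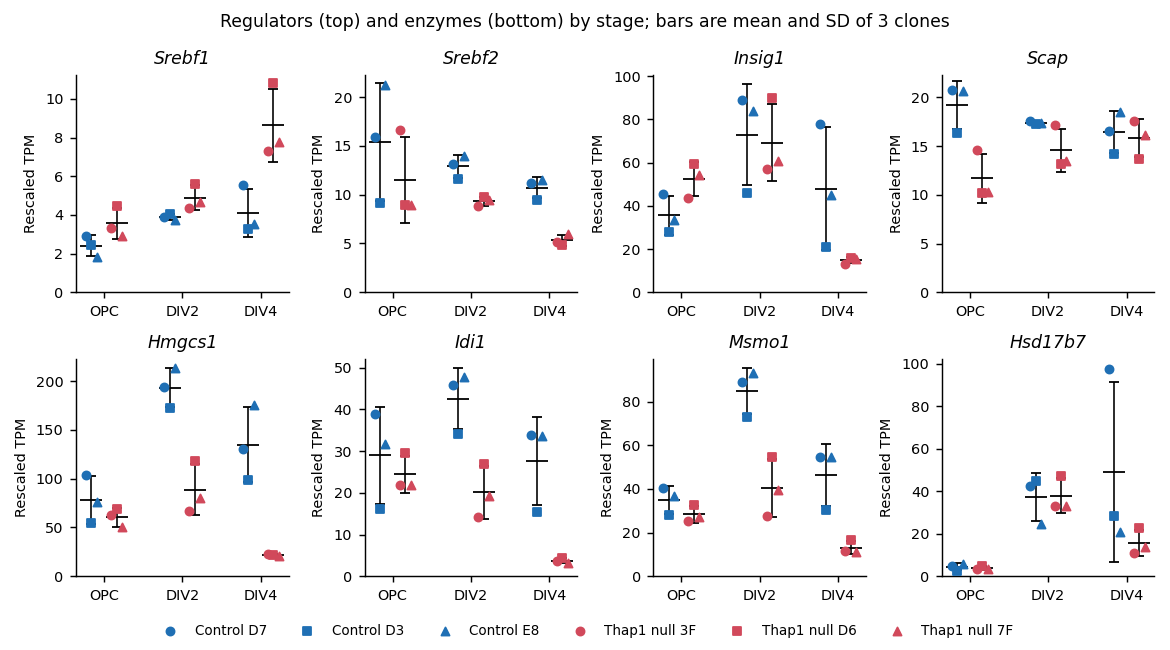
Points are the rescaled TPM of each clone at the 3 stages for 4 regulators (top) and 4 enzymes (bottom), with horizontal bars at the mean and whiskers of 1 SD (n = 3). At DIV4 null clones lie above control for Srebf1 and below it for Srebf2, Insig1, Hmgcs1, Idi1 and Msmo1, while Scap overlaps and control Hsd17b7 runs from 20.6 to 97.7.

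The mevalonate arm, from acetyl-CoA units to farnesyl pyrophosphate, was represented by 7 genes, and 6 of them were called lower in null clones at DIV4. Hmgcs1 makes HMG-CoA and lies at chromosome 13, 119690379 to 119708260. It was 104, 55.0 and 76.5 in control OPCs, and 62.4, 69.0 and 50.04 in null OPCs, which overlapped. At DIV2 it was 194, 173 and 213 in control and 67.3, 118 and 80.6 in null clones, lower by 1.15 (SE 0.25, adjusted p = 0.0185). At DIV4 it was 130, 98.5 and 175 in control and 22.9, 22.1 and 21.1 in null clones, lower by 2.52 (SE 0.25, adjusted p = 3.11e-05). The 3 null clones thus lay within 2 TPM of one another at DIV4, and the lowest control clone was at 98.5.

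Idi1, which interconverts the isoprenoid building blocks isopentenyl and dimethylallyl pyrophosphate, fell as far. It was 34.0, 15.5 and 33.6 in control and 3.71, 4.28 and 3.14 in null clones at DIV4, a change of -2.53 (SE 0.33, adjusted p = 0.000399). At DIV2 its groups did not overlap either, with 45.8, 34.2 and 47.7 against 14.3, 26.8 and 19.2, but the change of -1.07 was not called (adjusted p = 0.0966). Fdps, which makes farnesyl pyrophosphate, was 117, 30.9 and 86.5 in control and 15.6, 18.3 and 15.6 in null clones at DIV4 (-1.98, SE 0.43, adjusted p = 0.0152). Control D3 was the lowest control clone for both genes.

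Mvk and Pmvk, the kinases that phosphorylate mevalonate, and Mvd, the decarboxylase after them, were also called lower at DIV4. Mvk was 20.6, 8.54 and 17.9 in control and 4.18, 5.32 and 4.16 in null clones (-1.51, adjusted p = 0.0182). Pmvk was 28.0, 14.0 and 24.4 against 13.4, 12.1 and 11.6 (-0.74, adjusted p = 0.0463), so that control D3 lay close to the null clones. Mvd was 27.5, 7.03 and 19.0 against 4.42, 5.08 and 4.96 (-1.51, adjusted p = 0.0234). Acat2, a thiolase that joins acetyl-CoA units, was 94.7, 19.6 and 36.7 against 13.9, 15.4 and 13.5. Its change of -1.46 was not called (adjusted p = 0.0593) and was called with the clone as a block (adjusted p = 0.0388). Acat2 shares 43.8% of its 31-base words with Acat3, Fdps 27.9% with Gm43738 and Idi1 18.8% with Gm13502, so their reads could be split and their values are uncertain.

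All 3 enzymes that build squalene and close it into lanosterol were called lower at DIV4. Fdft1, squalene synthase, was 23.8, 15.9 and 39.3 in control and 5.21, 6.06 and 5.84 in null clones (-1.94, SE 0.29, adjusted p = 0.00118). Sqle, squalene epoxidase, was 25.9, 19.1 and 43.9 against 7.85, 12.1 and 8.44 (-1.49, SE 0.33, adjusted p = 0.0171). Lss, lanosterol synthase, was 26.1, 8.63 and 17.4 against 5.45, 6.50 and 5.61 (-1.30, SE 0.35, adjusted p = 0.0404). No control clone fell within the null range for any of them. At DIV2 the groups did not overlap for the 3 genes, with changes of -1.01, -1.08 and -0.96, and none was called (adjusted p = 0.0727, 0.0980 and 0.167). Fdft1 shares 14.3% of its 31-base words with Gm6781 and is uncertain, and 53.9% of the Lss TPM lay in coding transcripts.

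Of the 8 enzymes that turn lanosterol into cholesterol, 5 were called lower at DIV4. Msmo1, the C4-methylsterol oxidase whose start region is shown above, was 88.7, 72.9 and 92.9 in control and 27.5, 54.4 and 39.4 in null clones at DIV2 (-1.09, SE 0.26, adjusted p = 0.0297). At DIV4 it was 54.5, 30.2 and 54.5 in control and 11.7, 16.5 and 11.1 in null clones (-1.72, SE 0.26, adjusted p = 0.00135). The groups were apart at both stages. Cyp51, the lanosterol demethylase, was 42.1, 27.6 and 48.0 against 11.6, 14.4 and 12.3 at DIV4 (-1.52, adjusted p = 0.00224). At DIV2 its change of -0.87 had an adjusted p of 0.0672, and of 0.0437 with the clone as a block.

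Tm7sf2, a sterol reductase, was 14.3, 11.4 and 16.2 in control and 3.44, 5.39 and 4.52 in null clones at DIV4 (-1.46, SE 0.20, adjusted p = 0.000513). It shares 12.9% of its 31-base words with Vps51 and is uncertain. Nsdhl, which removes C4 groups together with MSMO1, was 10.9, 5.83 and 8.58 against 2.21, 2.52 and 2.38 (-1.45, adjusted p = 0.00806). Sc5d, the sterol C5-desaturase, was 26.3, 13.7 and 25.4 against 11.3, 13.0 and 10.7 (-0.79, adjusted p = 0.0338). The lowest control clone was D3 in each of the 3 genes, and for Sc5d it lay only just above null D6.

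The other 3 late enzymes were not called at DIV4. Ebp, a sterol isomerase, was 6.89 ± 3.70 in control and 2.64 ± 0.787 in null clones (SD, n = 3), a change of -1.04 (adjusted p = 0.0672, and 0.0458 with the clone as a block). Dhcr7, the last reductase of the Kandutsch-Russell branch, was 7.56 ± 1.36 and 3.57 ± 0.217 (-0.89, adjusted p = 0.0868). Hsd17b7, a keto-sterol reductase, was 97.7, 28.5 and 20.6 in control and 10.9, 22.7 and 13.6 in null clones, and its groups overlapped (-1.31, adjusted p = 0.0983). Its control values were spread more than those of any other enzyme at that stage relative to their mean, with D7 far above the others.

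The enzymes called lower at DIV4 with each of the 6 clones left out in turn were Hmgcs1, Idi1, Fdft1, Cyp51, Tm7sf2 and Msmo1. Srebf1 and Nsdhl kept the call in 4 of these 6 fits, Fdps and Sqle in 3, Mvk in 2, and Srebf2, Insig1, Pmvk, Mvd, Lss and Sc5d in 1. At DIV2 Hmgcs1 kept it in 3 and Msmo1 in 2, and the count of members called was 11 without control D3, 4 without null D6, and 0 without control E8, null 3F or null 7F. In OPCs it was 8 without control D3, 1 without control E8 or null D6, and 0 without null 7F. The count of members called at DIV4 ran from 6, without null 3F or null 7F, to 23, without control D3. It was 11 without control D7 or null D6 and 9 without control E8. Over all genes tested the DIV4 count was 572 with every clone. It was 121 and 84 without null 3F and 7F, 350 without null D6, and 906, 1008 and 370 without control D7, D3 and E8. At DIV2 it was 332, and 341 without control D3 and 339 without null D6. Without control E8, null 3F or null 7F it was 229, 103 and 92. In OPCs 1234 genes were called, and 1881, 531, 654 and 179 without control D3, control E8, null D6 and null 7F.

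Transport and storage genes did not share the pattern as a pair. Stard4, a soluble sterol carrier that is an SREBP-2 target, was 3.68 ± 1.21 in control and 1.06 ± 0.170 in null clones at DIV4 (SD, n = 3). Its groups did not overlap, and the change of -1.16 had an adjusted p of 0.0534, and of 0.0413 with the clone as a block. Soat1, which esterifies cholesterol for storage, was 5.91, 7.09 and 5.73 in control OPCs and 8.78, 9.32 and 9.83 in null OPCs. It was called higher by 0.51 (SE 0.15, adjusted p = 0.0334), and the groups did not overlap. The call was lost without any 1 of the clones but control D3, and at DIV4 Soat1 changed by 0.10 (SE 0.15, adjusted p = 0.753).

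The efflux genes showed no common direction. Abca1, the exporter that loads cholesterol onto apolipoproteins, was 0.130, 3.48 and 0.355 in control OPCs and 0.569, 0.941 and 1.22 in null OPCs. It was 0.599, 2.78 and 1.96 in control and 11.9, 2.70 and 7.64 in null clones at DIV2. At DIV4 it was 2.63, 9.75 and 6.32 in control and 22.8, 11.6 and 23.0 in null clones. The DIV4 groups did not overlap, and the change of 1.55 was not called (SE 0.55, adjusted p = 0.113). Its level was higher at each later stage in every clone, except in control D3 between OPC and DIV2.

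Abcg1, the exporter to lipoprotein particles, lies at chromosome 17, 31057675 to 31117988. It was 5.81, 11.9 and 6.73 in control OPCs and 1.71, 2.16 and 1.54 in null OPCs, with no overlap. It was called lower in null OPCs by 1.65 (SE 0.33, adjusted p = 0.00630), a call lost without null 7F (adjusted p = 0.0652). In deposited TPM its change was -0.05 (adjusted p = 0.907), where the median gene was 1.49 higher. At DIV2 the groups overlapped, at 1.29, 1.99 and 2.01 in control and 1.55, 4.14 and 4.49 in null clones. At DIV4 it was 4.69, 1.39 and 3.62 against 1.23, 0.788 and 0.649, a change of -1.08 that was not called (adjusted p = 0.0705).

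Apoe, the apolipoprotein that carries cholesterol between cells of the brain, varied more between control clones than between genotypes. It was 1.69, 22.7 and 4.86 in control OPCs and 0.985, 1.57 and 1.04 in null OPCs. At DIV4 it was 1.58, 139 and 285 in control D7, D3 and E8 and 9.31, 14.3 and 28.1 in null clones (-1.50, SE 1.39, adjusted p = 0.576). Astrocytes are the main source of Apoe in brain. Gfap, an astrocyte filament gene, was 0.2, 101.5 and 235.3 in the same control DIV4 libraries and 81.8, 79.0 and 136.1 in null clones. Apoe and the astrocyte marker sum were both lowest in control D7 and highest in control E8 at DIV4. The null clones did not follow that order: their astrocyte sums were 261, 185 and 282, near the 230 of control D3. Their Apoe was far below the 139 of that clone. The part of astrocyte-like cells in these values was not tested. Nr1h2, the liver X receptor beta gene, was 8.28 ± 2.06 in control and 7.17 ± 0.609 in null clones at DIV4 (SD, n = 3; adjusted p = 0.634). Lpcat3, a phospholipid-remodelling enzyme and receptor target, was 4.87 ± 0.569 and 6.50 ± 0.859, with the null clones all higher and no call (0.35, adjusted p = 0.394).

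**Figure D5:**
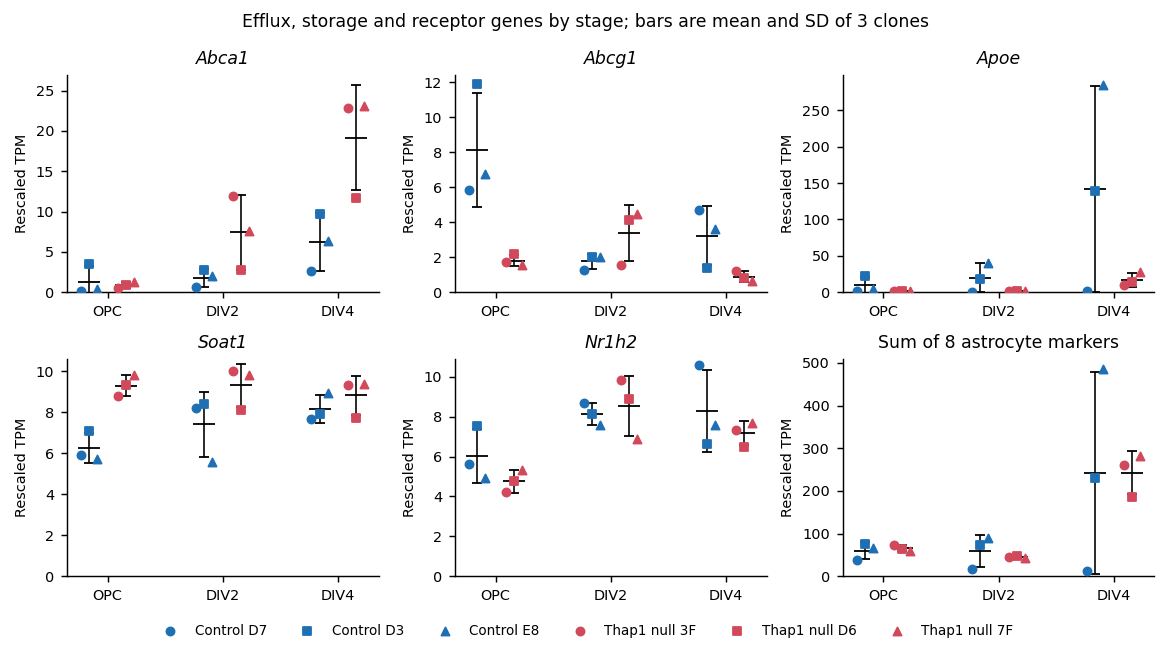
Points are the rescaled TPM of each clone at the 3 stages for Abca1, Abcg1, Apoe, Soat1 and Nr1h2 and for the sum of 8 astrocyte markers, with the mean and whiskers of 1 SD (n = 3), which are cut at 0. Abca1 has its highest mean in null DIV4 clones (11.6 to 23.0), although null 3F reaches 11.9 at DIV2. Abcg1 is highest in control OPCs (5.81 to 11.9), Apoe in control D3 and E8 at DIV4 (139 and 285), and the astrocyte sum in control E8 at DIV4 (486).

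From OPC to DIV2, 12 members were called higher in control clones and 1 lower, beside 21.3% and 18.7% of all genes tested, and 9 of the 18 enzymes were among the rises. The enzymes' median change was 0.72, against 0.03 over all genes. Hsd17b7 had the largest rise, from 4.98, 2.58 and 5.71 to 42.5, 45.0 and 24.4 (2.82, SE 0.44, adjusted p = 0.000227). Hmgcs1 rose by 1.33 (adjusted p = 0.000794), Msmo1 by 1.26 (adjusted p = 0.00156), Sc5d by 1.21 (adjusted p = 0.000360) and Lss by 1.19 (adjusted p = 0.0136). Insig1, Srebf1 and Lpcat3 rose by 0.99, 0.54 and 0.73, and Abcg1 fell by 1.68 (adjusted p = 0.00121). With the clone as a block 19 members were called higher and 1 lower, adding Insig2, Mvk, Mvd, Idi1, Fdps, Sqle and Nsdhl. Leaving out control E8 left 6 member calls, and 2644 in place of 4164 over all genes tested. The call of Fdft1 was lost with any 1 clone left out. The changes rest on the control OPC libraries that these 3 noncoding features filled, and in deposited TPM Abcg1 was higher at DIV2 by 0.34 (adjusted p = 0.383), where the median gene rose by 1.99.

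In null clones 5 members were called higher from OPC to DIV2 and none lower, beside 17.7% and 15.6% of all genes. Hsd17b7 rose from 3.56, 4.78 and 3.37 to 33.2, 47.3 and 33.0 (2.98, SE 0.44, adjusted p = 0.000195), with changes of 2.91, 3.06 and 2.96 in the 3 clones. Abca1 rose by 1.98 (SE 0.55, adjusted p = 0.0121), Sc5d by 0.79 (adjusted p = 0.00727), Nr1h2 by 0.72 (adjusted p = 0.00512) and Insig2 by 0.66 (adjusted p = 0.00727). The enzymes' median change was 0.10. With the clone as a block 9 members were called higher, adding Srebf1, Scap, Lss and Msmo1. Leaving out null 3F, D6 or 7F left 1, 3 and 2 calls, and Hsd17b7 was called in each of these fits. Over all genes tested they called 1591, 1983 and 1757, in place of 3468.

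From DIV2 to DIV4 no member was called in control clones, where limma called 0.250% of all genes. At an unadjusted p under 0.05, 10 members were lower and 1 higher, beside 10.95% of all genes in either direction. With the clone as a block Msmo1 and Nsdhl were called lower (adjusted p = 0.0292 and 0.0428), without the control D7 DIV4 library 1 member was called higher and 4 lower, and without clone D7 at all stages 1 higher and 1 lower. Over all genes tested those fits called 62, 823 and 356, in place of 26. In null clones 12 members were called lower over the same interval and none higher, beside 1.28% and 1.65% of all genes. These were Insig1 and 11 of the 18 enzymes: Hmgcs1, Mvk, Pmvk, Mvd, Idi1, Fdps, Fdft1, Cyp51, Tm7sf2, Msmo1 and Nsdhl. Insig1 fell by 2.12 (SE 0.36, adjusted p = 0.00867), Fdps by 2.14 (adjusted p = 0.0186), Idi1 by 2.13 (adjusted p = 0.00546) and Hmgcs1 by 1.92 (adjusted p = 0.00138). All 18 enzymes were lower in every null DIV4 clone than in any null DIV2 clone, as were 23.2% of all genes. With the clone as a block 18 members were called lower and 2, Srebf1 and Abca1, higher. Leaving out null D6 or null 7F ended every member call, leaving out null 3F kept 1, and leaving out control D7 gave 19. Over all genes tested those fits called 5, 3, 12 and 927, in place of 305. This comparison and the DIV4 comparison of genotypes hold the same 3 null libraries and are not independent.

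The test of the difference itself, the change in null clones minus that in control clones, called no member in either interval. limma called 0.279% of all genes for OPC to DIV2 and 0 for DIV2 to DIV4. At an unadjusted p under 0.05 there were 4 lower and 1 higher members in the first interval and 7 lower and 1 higher in the second. Of all genes tested, 13.8% and 5.18% were under that p in the 2 intervals. From DIV2 to DIV4 Hmgcs1 changed by -0.57, -0.80 and -0.28 in control clones and by -1.52, -2.36 and -1.89 in null clones. That difference was -1.37 (SE 0.35, adjusted p = 0.566), with no overlap between the clones' changes. Idi1 differed by -1.46 (SE 0.46, adjusted p = 0.727) and Insig1 by -1.39 (SE 0.52, adjusted p = 0.880), both without overlap. Among all 10409 genes tested, the clones' changes did not overlap for 1225 lower and 1308 higher in null clones. From OPC to DIV2 Abcg1 changed by -1.57, -2.11 and -1.36 in control and by -0.08, 0.70 and 1.11 in null clones, a difference of 2.26 (SE 0.47, adjusted p = 0.0588). Ebp differed by -1.17 in that interval, with an adjusted p of 0.253, and of 0.0455 with the clone as a block.

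Of 48 further genes of the pathway, 41 could be tested, and none was called higher between genotypes at any stage. Called lower were 3 in OPCs, 1 at DIV2 and 2 at DIV4 (7.32%, 2.44% and 4.88% of the 41, against 5.95%, 1.26% and 2.34% of all genes tested). Their median change at DIV4 was 0.08. Acss2, which makes acetyl-CoA from acetate and is an SREBP target, was 17.5, 12.5 and 21.1 in control and 5.82, 5.98 and 5.17 in null clones at DIV4 (-1.41, SE 0.23, adjusted p = 0.00224). Cyp46a1, the cholesterol 24-hydroxylase, was 9.55, 4.07 and 7.14 in control and 0.71, 1.82 and 0.93 in null clones at DIV2 (-1.85, SE 0.46, adjusted p = 0.0376). At DIV4 Cyp46a1 was 19.1, 3.32 and 4.02 against 0.94, 2.15 and 1.21 (-1.67, adjusted p = 0.0457). Both genes were lower in every null clone than in any control clone at DIV4. Acss2 kept its call without each clone in turn, and Cyp46a1 kept it in 1 of the 6 fits at DIV4 and in 2 at DIV2. In OPCs Rxra, the partner of the liver X receptors, was lower by 1.10 (adjusted p = 0.00603), Por, the electron donor of CYP51 and squalene epoxidase, by 0.64 (adjusted p = 0.00719), and Cyb5r3, a cytochrome b5 reductase, by 0.51 (adjusted p = 0.0498). In deposited TPM the 3 were higher in null OPCs by 0.47, 1.12 and 1.42, each below the shift of 1.49 of the median gene.

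None of the 9 fatty acid genes under SREBP control was called between genotypes at any stage, where limma called 11.86%, 3.19% and 5.50% of all genes in OPCs, at DIV2 and at DIV4. At DIV4 their median change was -0.20, with 5 lower and 4 higher, and 2 had an unadjusted p under 0.05, as did 22.03% of all genes. Fasn, fatty acid synthase, changed by 0.50 (SE 0.33, adjusted p = 0.413) and Scd2, a stearoyl-CoA desaturase, by -0.40 (SE 0.14, adjusted p = 0.103). None of the 8 genes of SREBP processing and sterol-regulated turnover or of the 10 tested genes of uptake and intracellular transport was called between genotypes either. At DIV4 their medians were 0.18 and 0.14, and 3 and 2 of them had an unadjusted p under 0.05. With lists of this size, counts of 0 are not apart from the shares over all genes.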

How the data were processed

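RNA was measured in 18 libraries made, per the labels' protocols, with a stranded total RNA kit that includes ribosomal RNA removal. The submitters' processing notes name STAR, Picard and mm10; their roles, the quantifier, annotation and filters are not given in the sources used here. The authors deposited TPM per Ensembl transcript (93666 transcripts), each column summing to 1000000, so depth is unknown and precision rests on 3 clones per group. TPM of protein-coding transcripts was summed by gene name and divided by median-of-ratios factors from 12320 genes above 0 in every library, a scaling that presumes a mostly unaltered transcriptome. Date-like gene names (25) were restored through transcript identifiers, and GENCODE M21 (GRCm38), which holds 96.6% of the identifiers, gave coordinates. Genes sharing at least 10% of their 31-base words with another gene are called uncertain.

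limma 3.58.1 (R 4.3.3) was fitted to log2(rescaled TPM + 1) for genes with a mean of at least 1, with 1 mean per group over the 18 libraries, eBayes with a trend and Benjamini-Hochberg adjustment within each of 9 comparisons over all genes tested. P-values rest on the spread among the libraries of a group, pooled over all groups, in which clone, culture and library differences are mixed. The main fit treats the libraries of a recurring clone as independent. The clone was a fixed block for stage changes and a random block for genotypes in an alternative fit. Clones pair the stages because the same line recurs: deviations from group means correlated at 0.285 on average within a clone (0.026 to 0.653 over 18 pairs) and -0.14 between clones of a genotype. Deviations from a mean of 3 clones sum to 0, so the negative value follows from the centring and is no separate evidence. Alternatives were other scalings, all biotypes, a pseudocount of 0.1, other filters, no trend, fewer groups and leaving out each clone; leaving out single libraries was chosen after seeing the data. The members and lists were chosen with earlier results of these data known. Values are printed per clone for members called between genotypes and for the 8 most abundant, and at most 3 further genes a list are named, where called between genotypes; Fasn, Scd2, Abca1 and the others named beyond this were chosen after their values were seen. The limma script was tested on simulated data. Tables used Python 3.11.15, numpy 2.4.6 and pandas 2.3.3, and plots matplotlib 3.10.9.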

Additional observations from a re-analysis of the deposited data

How the results depend on the processing

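Counts are of members called, out of 30 tested, and counts over all genes follow them. All-gene counts are out of 10409 in most fits. They are out of 10656 in deposited TPM, 12490 as shares of coding TPM, 12474 with all biotypes and 20115 with no filter. At DIV4 null against control gave 17 calls, 9 when only its own 6 libraries were fitted and 10 without the control D7 DIV4 library. The other scalings, filters, pseudocount and block gave 13 to 20, and leaving out 1 clone gave 6 to 23. Over all genes 572 calls became 178 in the DIV4 libraries alone and 634 without the control D7 DIV4 library (84 to 1008 without 1 clone). At DIV2 the count of 2 became 0 in deposited TPM, 6 as shares of coding TPM, 1 with all biotypes, 1 with no filter and 5 in its own libraries (0 to 11 without 1 clone). Over all genes 332 became 213, 306, 353, 324 and 618 in those fits (92 to 702). In OPCs the count of 3 became 27 in deposited TPM, 6 as shares of coding TPM, 1 in its own libraries, 6 without control D3 OPC and 1 without null D6 OPC (0 to 8 without 1 clone). Over all genes 1234 became 9389, 2796, 93, 2002 and 851 in those fits (179 to 2191).

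For control OPC to DIV2, 13 became 28 in deposited TPM, 27 as shares of coding TPM, 7 with all biotypes, 8 in its own libraries and 20 with the clone as a replicate block (6 to 13 without 1 clone). Over all genes 4164 became 9638, 6392, 4337, 2357 and 4694 in those fits (2644 to 4496). For null OPC to DIV2, 5 became 8 as shares of coding TPM and 9 with the block (1 to 6). Over all genes 3468 became 3514 and 3987 (1591 to 4078). For null DIV2 to DIV4, 12 became 6 in deposited TPM, 24 in its own libraries and 20 with the block (0 to 19). Over all genes 305 became 70, 2277 and 613 (3 to 927). For control DIV2 to DIV4, 0 became 2 with the block and 5 without the control D7 DIV4 library (0 to 2). Over all genes 26 became 62 and 823 (3 to 356). The difference in change from OPC to DIV2 went from 0 to 27 in deposited TPM, 1 as shares of coding TPM, 1 with the block and 1 without control D3 OPC (0 to 1). Over all genes 29 became 8743, 161, 95 and 359 (2 to 192). From DIV2 to DIV4 the difference called 0 members in every fit run, and at most 21 of all genes.

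Among called members, the estimates that changed sign were Scap in OPCs (1.21, adjusted p = 0.00376) and Abcg1 from OPC to DIV2 in control (0.34, adjusted p = 0.383), both in deposited TPM. Called or not, 22 of the 30 estimates changed sign in OPCs in deposited TPM, 3 at DIV2, 1 at DIV4, 3 for control OPC to DIV2 and 8 for null OPC to DIV2. Deposited TPM moved the median gene by 1.49 in OPCs, by -0.16 and -0.15 at DIV2 and DIV4, and by 1.99 for control OPC to DIV2. It made 99.8% of OPC genotype calls over all genes higher in null clones, in place of 49.8%, and shares of coding TPM made it 93.3%. The block changed no call but those given beside the results. Depth is unknown from TPM, so a value at 0 has no stated limit, and 3 clones a group limit what could be called.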
